A study of Mus musculus with 3 samples.

Results

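C1 is one of 9 clusters of CD8+ T cells taken from mouse spleen after allogeneic bone marrow transplantation (BMT), and the study names it for effector cells with low Cd226. Its cells were found as the value of the deposited CD8 cluster column whose numbers of cells per treatment group equalled those the study gives for C1. They were 1665 of 10833 CD8+ T cells and of 21204 T cells in all. B6D2F1 recipients had total body irradiation and were given T cell-depleted B6 bone marrow, polyclonal B6 T cells and a small number of TEa TCR transgenic CD4+ T cells. From day 0 to day 6 they had daily saline, cyclosporine A (CSA) at 5 mg/kg (lower dose) or at 50 mg/kg (higher dose), and spleens were taken on day 7. Cells were sorted on CD90.2, CD4 and CD8, which T cells of the recipient also carry. Each group had 6 mice in 3 pools of 2 mice, and each pool carried its own hashtag antibody. The 3 pools of a group went through 1 droplet capture, so that capture and treatment cannot be told apart, and p-values measure the spread between pools of a group.

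Cyclosporine binds cyclophilins and blocks calcineurin, the calcium-dependent phosphatase that sends NFAT transcription factors to the nucleus after a T cell receptor (TCR) signal. Without that signal T cells transcribe less of the cytokines, costimulatory receptors and inhibitory receptors that NFAT and its partners drive. In graft-versus-host disease donor CD8+ T cells recognise recipient antigens, divide and become effectors that kill through granzymes and perforin. KLRG1 marks antigen-experienced effector and memory subsets. Ly6C is found on such subsets too, but its RNA was also present in the naive-like cluster described below. PD-1 and TOX mark cells under persistent TCR stimulation, and CD226 is a costimulatory receptor that shares its ligands with the inhibitory receptor TIGIT.

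C1 held 365 cells in saline, 486 at the lower dose and 814 at the higher dose. Its share of CD8+ T cells was 8.09%, 8.54% and 6.99% in the saline pools, 21.1%, 16.9% and 17.5% at the lower dose and 22.6%, 23.7% and 22.9% at the higher dose. These shares follow from the cell numbers that identified the cluster and are given with no test. Summed over its cells, a pool had between 405224 and 2067558 unique molecular identifiers (UMIs), the smallest totals in saline. The median C1 cell had 3415 UMIs in saline, 4857 at the lower dose and 6254.5 at the higher dose, and the other CD8+ T cells rose in the same order from 4223 to 7825.5, so depth moved with dose. A second hashtag with at least 0.5 of the strongest hashtag's counts was carried by 89 of the 1665 C1 cells, at most 11.8% of a pool. In the third pool at the lower dose the pool's own hashtag was the strongest in 78.5% of CD8+ T cells, fewer than in any other pool. Of the C1 cells, 34 had a barcode that also occurred in another capture. Changes below are log2 fold changes of CPM (a gene's UMIs scaled to a common total) with TMM scaling, from edgeR's quasi-likelihood test across the pools, with p-values adjusted over all 7011 genes tested, and ± marks the SD over 3 pools.

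The label was checked on plain CPM, without TMM scaling. Cd8a averaged 529 CPM in saline, 446 at the lower dose and 533 at the higher dose, Cd3e stayed between 1209 and 1268 CPM, and C1 cells had no UMI of Cd4. Ly6c2, which encodes Ly6C, averaged 737, 891 and 2016 CPM in C1. The C0 cluster had 678, 1392 and 3434 CPM, and the naive-like C7 cluster, in which Ccr7 (306 CPM over the 9 pools), Lef1 (273 CPM) and Tcf7 (206 CPM) led, had 1230, 967 and 1314 CPM of Ly6c2. Ccl5, the chemokine RANTES, was highest in C1 in saline at 6881 CPM against 3312 CPM in C0, but C0 exceeded C1 under CSA with 15471 against 7440 CPM at the lower dose and 29102 against 15284 CPM at the higher dose. Both marker genes thus ranked second among the clusters over all pools. Cd226 averaged 199 ± 29.7 CPM in C1 and 489 ± 11.7 CPM in C0 in saline, where only one of the 9 clusters was lower than C1. At the higher dose C1 had 74.0 ± 8.32 CPM against 105 ± 7.66 CPM for C0. It then ranked 2 of 8 clusters. Cd226 in C1 was thus low among the clusters in saline and not at the higher dose, although it stayed under C0.

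**Figure D1:**
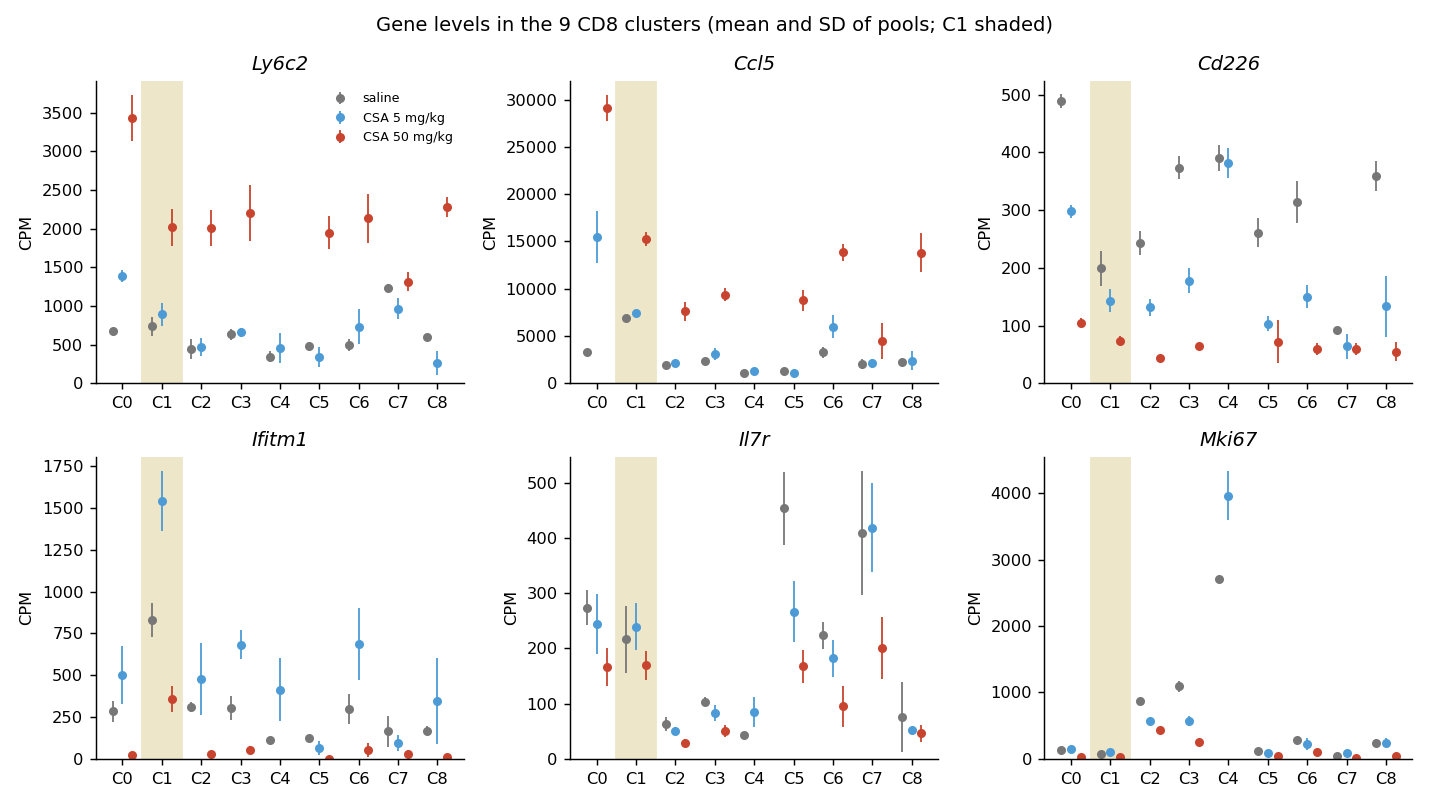
Mean plain CPM (y axis) of Ly6c2, Ccl5, Cd226, Ifitm1, Il7r and Mki67 in CD8 clusters C0 to C8 (x axis) for saline, the lower dose and the higher dose, with SD over the 3 pools as bars and C1 shaded. C4 has no value at the higher dose because its pools held fewer than 10 cells. Ifitm1 is highest in C1 in all 3 groups, and Cd226 in C1 is far under C0 in saline (199 against 489 CPM) and near it at the higher dose.

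Ifitm1, which encodes an interferon-induced transmembrane protein, had the highest ratio in C1. Against the other CD8+ T cells of the same pool its median log2 ratio of plain CPM over the 9 pools was 2.04, followed by its neighbours Ifitm2 at 1.94 and Ifitm3 at 1.33. Ccl5 was at 1.30, the IL-7 receptor gene Il7r at 1.08 and Lilr4b, a leukocyte immunoglobulin-like receptor gene, at 1.07. The lowest ratios belonged to genes of dividing cells, with the spindle gene Aspm at -4.02, the replication checkpoint gene Clspn at -3.85 and the mitotic kinesin gene Kif4 at -3.69. All 18 S phase and all 22 G2/M genes described were lower in C1 in every pool. Because the clusters were made from these same counts, these ratios are a description with no test. Of 3284 genes with a mean of at least 50 CPM, 386 were higher and 744 lower in C1 in all 9 pools.

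Against C0, C1 again had more Ifitm1 (median log2 ratio 2.00), Ifitm2 (1.84) and Ifitm3 (0.93). The calcium-binding protein gene S100a4 (0.93) and the actin-capping gene Capg (0.81) were also higher. C1 had less of the interferon-stimulated genes. Of the 25 described, 16 were lower than in C0 in every pool, as were 477 of all 3360 genes described. The median log2 ratio was -0.79 over the list against -0.15 over all genes described, and examples were Rtp4 (-1.33) and the ubiquitin-like modifier gene Isg15 (-1.32, higher in C1 in 2 of the 9 pools). The chemokine receptor gene Cx3cr1 (-1.29) and the secreted fibrinogen-like gene Fgl2 (-1.38) were lower too. Against the cycling cluster C2, C1 had more Il7r (2.45), Ifitm1 (2.06) and the anti-proliferative gene Btg1 (1.74).

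The start regions of 3 of these genes are shown because the Ifitm genes lead the description of C1 and rose at the lower dose, where Isg15, a classical interferon-stimulated gene, was at -0.45 (adjusted p = 0.197), below. They are the 120 bases before the RefSeq transcript start in GRCm38.p6 (the mm10 build), on the strand of the gene, and capitals mark GAAANNGAAA, the core of an interferon-stimulated response element, searched on both strands.
Ifitm1, chr7:140967956-140968075, plus strand: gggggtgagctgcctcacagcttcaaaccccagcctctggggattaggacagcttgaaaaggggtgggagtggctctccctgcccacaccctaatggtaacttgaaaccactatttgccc
Ifitm2, chr7:140955962-140956081, minus strand: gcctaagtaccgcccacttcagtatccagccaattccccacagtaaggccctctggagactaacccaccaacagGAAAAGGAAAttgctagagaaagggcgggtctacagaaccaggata
Isg15, chr4:156200819-156200938, minus strand: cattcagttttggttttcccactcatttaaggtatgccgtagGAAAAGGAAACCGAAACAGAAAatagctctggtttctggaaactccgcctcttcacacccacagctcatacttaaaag
The Isg15 stretch holds 3 overlapping copies, the Ifitm2 stretch 1 and the Ifitm1 stretch none. Ifitm3, which is not shown, has 2 copies within the 50 bases after its start. In windows of 300 bases around the start, 3.99% of 27025 RefSeq genes held the motif, as did 13 of the 23 genes of the interferon list with an entry.

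At the higher dose against saline, 1889 of the 7011 genes tested in C1 changed (26.9%), 937 upward (13.4%) and 952 downward (13.6%). With scaling to library size alone the split was 397 upward and 1571 downward, because the median gene then moved by -0.195. Fold changes below are therefore relative to the TMM-scaled median of 0.0053, and directions of named genes that library size scaling turns are given. The pools of the groups did not overlap for 40.1% of genes tested. Among called genes of at least 50 CPM without such overlap, the 10 largest rises were those of Anxa1, Klrg1, Ctla2a, Ly6c2, Cldnd1, Arl5c, Klrd1, Rhoc, S100a4 and Gm45552. Ctla2a, a cathepsin inhibitor-like gene, went from 88.8 ± 4.54 to 304 ± 27.8 CPM (1.77, SE 0.12, adjusted p = 4.93e-15), with 104 ± 12.8 CPM at the lower dose. Cldnd1 rose by 1.54, Arl5c by 1.49, the small GTPase gene Rhoc by 1.47 and Gm45552 by 1.42. Both doses are compared with the same saline pools.

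Ly6c2 was 805, 620.4 and 619.7 CPM in the saline pools, 779.9, 1067 and 868 CPM at the lower dose and 2093, 2414 and 1922 CPM at the higher dose. All higher dose pools were above all others, and the rise at the higher dose was 1.66 (SE 0.09, adjusted p = 1.55e-18). Ccl5 was 6283, 6274 and 6560 CPM in saline, 7447, 7626 and 7597 CPM at the lower dose and 16153, 15446 and 17160 CPM at the higher dose. Its groups did not overlap and it rose by 1.35 (SE 0.04, adjusted p = 1.18e-25).

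Most genes tested of the natural killer (NK) receptor list rose. Of the 8 genes tested of 11 in this list, 5 rose and 2 fell, with a median of 0.72. These were 62.5% and 25%, against 13.4% and 13.6% of all genes tested. Klrg1, an inhibitory receptor of terminal effector cells, was 15.8, 32.0 and 18.0 CPM in saline, 13.3, 28.8 and 16.0 CPM at the lower dose and 126, 165 and 89.7 CPM at the higher dose. The first 2 groups overlapped and the third was above both, with a rise of 2.46 (SE 0.27, adjusted p = 1.66e-09). Klrd1, which encodes CD94, was 289, 252 and 320.0 CPM in saline, 431, 458 and 443 CPM at the lower dose and 823, 824 and 746 CPM at the higher dose. No group overlapped another, and the rise at the higher dose was 1.48 (SE 0.08, adjusted p = 4.19e-18). Klrk1, which encodes the activating receptor NKG2D, rose from 149 ± 10.3 to 352 ± 7.37 CPM (1.25), and Klrc1, which encodes NKG2A, the partner of CD94, from 246 ± 21.1 to 416 ± 22.8 CPM (0.76). The 2 that fell were the adaptor gene Fcer1g, from 67.3 ± 18.2 to 12.9 ± 7.31 CPM (-2.28), and Klrb1c, which encodes NK1.1 and had 5 UMIs at the higher dose. The fall of Klrb1c did not pass without the third saline pool.

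In the annexin, S100 and lamin list 18 of 20 genes rose and 2 fell, with a median of 0.74. Of all genes tested 13.4% rose and 13.6% fell. This list, like the others, was chosen with earlier results of these data known, so its share is not independent support. Anxa1, a calcium-dependent phospholipid-binding protein gene, was 65.6, 62.2 and 76.6 CPM in saline, 129, 132 and 98.8 CPM at the lower dose and 402, 416 and 336 CPM at the higher dose. Its groups formed 3 separate steps, and the rise of 2.50 (SE 0.14, adjusted p = 2.91e-18) was the largest among genes of at least 50 CPM whose groups did not overlap. S100a4 was 317, 347 and 349 CPM in saline, 465, 439 and 416 CPM at the lower dose and 906, 878 and 933 CPM at the higher dose, also in 3 steps (1.42, SE 0.07, adjusted p = 8.45e-19). S100a6, another calcium-binding protein gene, rose from 4378 ± 149 to 9160 ± 246 CPM (1.07) and the LIM-domain gene Crip1 from 2434 ± 42.0 to 4391 ± 95.9 CPM (0.85). Lmna, which encodes lamin A and C, was 0, 0 and 4.51 CPM in saline, 1.48, 3.93 and 5.34 CPM at the lower dose and 87.7, 111 and 80.4 CPM at the higher dose. Its saline level rests on 2 UMIs against 469 at the higher dose, a ratio of summed UMIs per total of 58.3 with an exact 95% counting interval of 16.0 to 482.5. The 2 genes of the list that fell were Ahnak (-0.40) and the galectin gene Lgals3 (-0.24, which did not pass without the second pool at the higher dose).

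**Figure D2:**
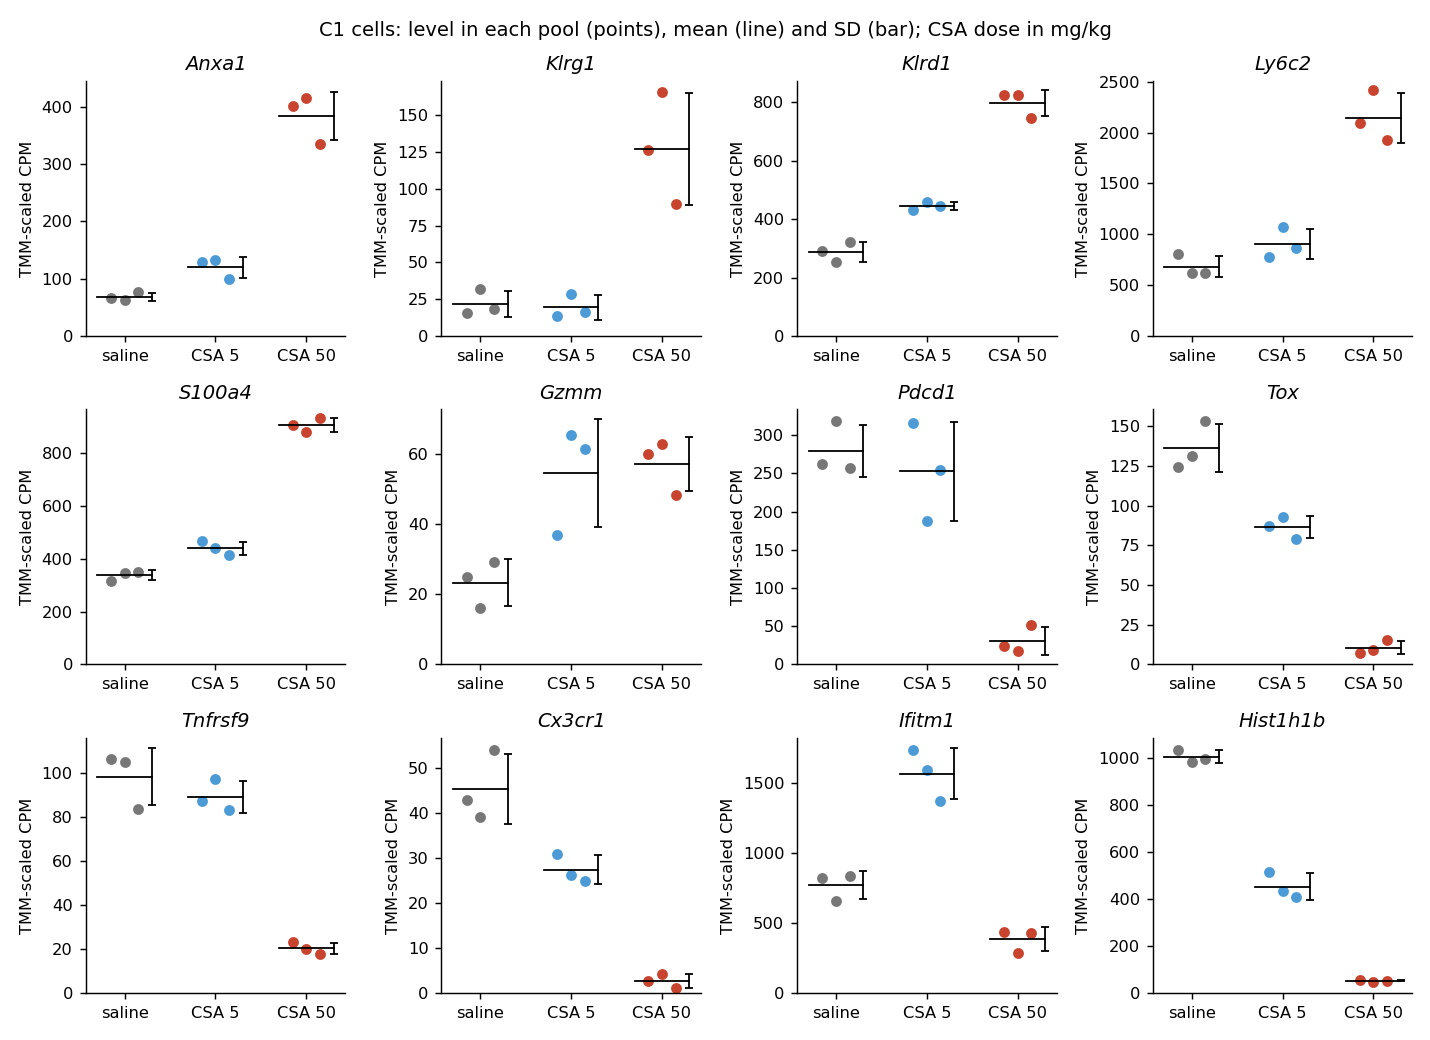
TMM-scaled CPM (y axis) of 12 genes in C1 in each pool (points) for saline, the lower dose and the higher dose (x axis), with the mean as a line and SD over 3 pools as a bar. Anxa1, Klrd1 and S100a4 climb in separate steps, Klrg1 is up only at the higher dose, Pdcd1, Tox, Tnfrsf9 and Cx3cr1 are lowest at the higher dose, and Ifitm1 is highest at the lower dose.

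The cytotoxic and effector list was divided, with 5 of 19 genes up and 9 down (median -0.08). These were 26.3% and 47.4%, against 13.4% and 13.6% of all genes tested. Gzmm, a granzyme gene, rose from 24.9, 16.0 and 29.3 CPM to 60.1, 63.0 and 48.5 CPM (1.31, adjusted p = 0.000102), and Gzmc, another, from 8.99 ± 4.53 to 48.6 ± 22.6 CPM (2.41). The lysosomal membrane gene Lamp1 rose by 0.74. Prf1, which encodes the pore-forming protein perforin, was 201, 203 and 219 CPM in saline, 193, 181 and 174 CPM at the lower dose and 90.4, 109.7 and 111 CPM at the higher dose. The groups did not overlap, and Prf1 fell by 0.99 on the log2 scale at the higher dose (adjusted p = 5.25e-09), while the lower dose did not pass (-0.19, adjusted p = 0.409). Gzma was 1389, 891 and 1019 CPM in saline and 773, 548 and 853 CPM at the higher dose (-0.59, adjusted p = 0.000353), a fall that did not pass with DESeq2. Fasl, the death receptor ligand gene, fell from 65.3 ± 12.2 to 33.4 ± 1.87 CPM (-0.96), Ifng from 72.9 ± 10.7 to 37.5 ± 8.65 CPM (-0.96) and Serpinb9, a granzyme B inhibitor gene, from 178 ± 38.8 to 77.1 ± 4.23 CPM (-1.18). Xcl1, a chemokine gene, went from 25.4 ± 13.2 to 1.0 CPM, which is 5 UMIs (-4.46). Gzmb, the most abundant granzyme gene, was 1852, 1253 and 1158 CPM in saline and 1591, 1425 and 1277 CPM at the higher dose. These overlapped (0.01, adjusted p = 0.94), and the sign turned with library size scaling to -0.19.

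Inhibitory receptors and exhaustion genes fell. Of the 13 genes tested of 17 in this list 10 fell and 2 rose, with a median of -1.87. These were 76.9% and 15.4%, against 13.6% and 13.4% of all genes tested. Pdcd1, which encodes PD-1, was 262, 318 and 257 CPM in saline, 316, 188 and 254 CPM at the lower dose and 24.3, 17.0 and 51.0 CPM at the higher dose. The lower dose pools lay across the saline range and the higher dose pools far under both (-3.13, SE 0.20, adjusted p = 3.46e-16). Tox, the transcription factor gene of the exhaustion program, was 124, 132 and 153 CPM in saline, 87.1, 93.1 and 79.2 CPM at the lower dose and 7.42, 9.09 and 15.5 CPM at the higher dose. Its 3 groups did not overlap (-3.61 at the higher dose, SE 0.20, adjusted p = 4.32e-18). The leukocyte immunoglobulin-like receptor gene Lilr4b was 111, 83.6 and 74.4 CPM in saline and 8.77, 7.88 and 6.19 CPM at the higher dose (-3.55). Lag3, an MHC class II-binding inhibitory receptor gene, fell from 219.9 ± 24.3 to 76.5 ± 25.5 CPM (-1.50), and Tigit from 344 ± 39.9 to 135 ± 37.1 CPM (-1.33). Cd38 and Entpd1, which encode surface enzymes that degrade extracellular nucleotides, fell by 3.59 and 1.93 on the log2 scale.

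Cd226 was 188, 206 and 158 CPM in saline, 133, 134 and 168 CPM at the lower dose and 74.9, 88.5 and 72.7 CPM at the higher dose. Its saline and lower dose pools overlapped, and it fell at the higher dose (-1.24, SE 0.13, adjusted p = 8.63e-10). In the list of activation and costimulation genes as a whole 6 of 18 rose and 6 fell (33.3% each, median -0.10), against 13.4% and 13.6% of all genes tested. This balance turned to 2 rises and 8 falls with library size scaling and to 3 and 6 with DESeq2. The costimulatory TNF receptor genes Tnfrsf9, which encodes 4-1BB, and Tnfrsf4, which encodes OX40, both fell. Tnfrsf9 was 106, 105 and 83.4 CPM in saline, 87.1, 97.0 and 82.8 CPM at the lower dose and 22.9, 20.0 and 17.5 CPM at the higher dose (-2.30, adjusted p = 3.99e-13), with only the higher dose apart. Tnfrsf4 went from 26.4 ± 2.55 to 1.56 ± 0.83 CPM (-3.95), and Icos fell by 0.62 on the log2 scale. The adhesion genes Slamf7 (0.60) and Cd48 (0.57) rose.

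Of 24 memory and homing genes tested, 11 rose (45.8%) and 6 fell (25%), against 13.4% and 13.6% of all genes tested. The median was 0.25, and with library size scaling 7 rose and 7 fell. Ccr2 (0.78) and Cxcr3 (0.55), inflammatory chemokine receptor genes, Itgb7 (0.61), an integrin subunit gene for gut homing, and Klf2 (0.41), a transcription factor gene of quiescent T cells, rose. Cx3cr1, the fractalkine receptor gene, was 43.0, 39.1 and 54.1 CPM in saline, 31.0, 26.2 and 24.9 CPM at the lower dose and 2.70, 4.24 and 1.03 CPM at the higher dose. Its groups stepped down without overlap (-4.07 at the higher dose, SE 0.36, adjusted p = 7.44e-12). Itga4, an integrin subunit gene, fell from 902 ± 50.4 to 420.3 ± 78.1 CPM (-1.09), and Tcf7, which encodes the memory precursor factor TCF1, from 61.5 ± 7.85 to 30.5 ± 4.68 CPM (-0.99).

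Among 19 effector transcription factor genes 1 rose (5.26%) and 11 fell (57.9%), against 13.4% and 13.6% of all genes tested. The median was -0.40, and with DESeq2 1 rose and 5 fell. The riser was Foxo1, the factor of quiescence and homing, from 68.4 ± 16.2 to 121 ± 8.18 CPM (0.80). Zeb2 (-2.80, 9 UMIs at the higher dose), Hif1a (-1.35), Bhlhe40 (-1.12) and Batf (-0.68) fell. Tbx21, which encodes T-bet, fell by 0.40 on the log2 scale and did not pass with DESeq2 nor without the first saline pool or the second or the third pool at the higher dose.

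Genes of the calcineurin and NFAT pathway moved in both directions. Of the 19 genes tested of 23 in this list, 4 rose (21.1%) and 7 fell (36.8%), with a median of -0.16. Of all genes tested 13.4% rose and 13.6% fell. The calcineurin inhibitor gene Rcan1 was among the members not tested. With library size scaling 1 rose and 8 fell and with DESeq2 4 and 2, so that the balance turned. Nfatc1, an NFAT gene that NFAT itself drives, was 174, 158 and 167 CPM in saline, 131, 115 and 126 CPM at the lower dose and 91.8, 98.2 and 99.5 CPM at the higher dose. The groups stepped down without overlap (-0.78 at the higher dose, adjusted p = 2.13e-06). The calcium channel gene Orai1 fell from 78.7 ± 7.59 to 46.9 ± 3.94 CPM (-0.76). The catalytic subunit gene of calcineurin, Ppp3ca, rose from 71.0 ± 9.30 to 109 ± 3.31 CPM (0.61). Ppia, which encodes cyclophilin A, is in the same list, and its sign turned negative with library size scaling. Of the 15 TCR-induced factor genes tested of 24 in that list, 4 rose and 4 fell (26.7% each), against 3 and 6 with library size scaling. Members with too few counts to be tested included Egr2, Egr3, Irf4 and Il2, so the split covers only the others. Nr4a1, an immediate-early nuclear receptor gene, went from 9.05, 1.78 and 9.01 CPM in saline to 62.8, 33.3 and 22.7 CPM at the higher dose (2.60, adjusted p = 4.84e-05), whereas its relative Nr4a2 fell from 23.3 ± 6.87 to 3.51 ± 0.56 CPM (-2.68). The saline level of Nr4a1 rests on few UMIs, as the saline pools held 405224, 515068 and 419712 C1 UMIs over all genes. Egr1, an immediate-early factor gene, rose by 1.18, and Dusp2, a phosphatase gene that limits MAP kinase signalling, was 122, 121 and 156 CPM in saline, 186, 172 and 183 CPM at the lower dose and 351, 313 and 324 CPM at the higher dose (1.32, adjusted p = 5.38e-13), again in 3 separate steps.

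In the list of TCR, CD3 and proximal signalling genes 10 of 20 rose (50%) and 5 fell (25%), against 13.4% and 13.6% of all genes tested. The median was 0.20, and with library size scaling 5 rose and 6 fell. Cd8b1, the coreceptor beta chain gene, was 1371, 1342 and 1203 CPM in saline, 1767, 1924 and 1863 CPM at the lower dose and 3116, 3338 and 3149 CPM at the higher dose. It rose in 3 steps (1.29, adjusted p = 1.28e-21). Cd6, a scavenger receptor gene that tunes TCR signals, rose from 66.3 ± 14.9 to 144 ± 7.51 CPM (1.15), Cd3g by 0.46 and the kinase gene Lck by 0.44. The related kinase gene Fyn fell from 233 ± 10.7 to 115 ± 5.56 CPM (-1.02).

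In the IL-2 and IL-15 receptor list 1 of 19 genes rose (5.26%) and 7 fell (36.8%), with a median of -0.15, against 0 and 10 with library size scaling. Of all genes tested 13.4% rose and 13.6% fell. In the survival and apoptosis list 2 of 19 rose (10.5%) and 5 fell (26.3%), with a median of 0.030, so that the rises were near the share of all genes. With DESeq2 2 rose and 2 fell. Bcl2, the anti-apoptotic gene, was 72.4, 126 and 115 CPM in saline and 32.4, 39.4 and 30.4 CPM at the higher dose, with no overlap (-1.64, adjusted p = 1.37e-09). Xiap, a caspase inhibitor gene, fell by 1.04 on the log2 scale, and the pro-apoptotic gene Bbc3 rose by 1.11. Bax, also pro-apoptotic, rose by 0.50.

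Interferon-stimulated genes fell in part, with 1 of 28 up and 11 down (median -0.38). These were 3.57% and 39.3%, against 13.4% and 13.6% of all genes tested. Isg15 was 92.7, 71.1 and 51.8 CPM in saline, 56.1, 53.8 and 49.0 CPM at the lower dose and 26.3, 23.6 and 26.3 CPM at the higher dose. Only the higher dose was apart from saline (-1.49, adjusted p = 1.62e-07). The guanylate-binding protein gene Gbp4 fell from 81.8 ± 5.58 to 44.3 ± 5.41 CPM (-0.89). Slfn2, a quiescence-linked schlafen gene, was the riser (0.26), and it did not pass with library size scaling or with clonotyped cells alone.

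The Ifitm genes turned direction between the doses. Ifitm1 was 819, 652 and 834 CPM in saline, 1731, 1592 and 1372 CPM at the lower dose and 437, 286 and 426 CPM at the higher dose, so that the 3 groups did not overlap and the lower dose was highest. It rose by 1.03 at the lower dose (SE 0.10, adjusted p = 2.85e-10) and was at -0.99 at the higher dose (SE 0.11, adjusted p = 8.83e-10). Ifitm3 was 85.9, 76.4 and 146 CPM in saline, 285, 289.8 and 215 CPM at the lower dose and 58.7, 37.0 and 40.7 CPM at the higher dose, the same order (1.35 and -1.17). Ifitm2 was 95.0, 81.8 and 137 CPM, then 239, 243 and 191 CPM, then 65.5, 38.8 and 83.0 CPM. It rose at the lower dose (1.10, adjusted p = 3.17e-05), while its saline and higher dose pools overlapped and the fall at the higher dose (-0.70, adjusted p = 0.0081) did not pass without the third saline pool or without the second pool at the higher dose. The order of Ifitm1 was not particular to C1. On counts scaled jointly with C1 it averaged 165 CPM in saline, 468 at the lower dose and 38.3 at the higher dose in the other CD8+ T cells. In the same order it averaged 212, 487 and 25.4 CPM in C0 and 260, 485 and 30.1 CPM in C2.

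Energy metabolism genes shifted by small amounts. Their counts stand beside 13.4% of all genes tested that rose and 13.6% that fell. Of 73 nuclear oxidative phosphorylation genes tested 45 rose and none fell (median 0.27), but with library size scaling 11 rose and with DESeq2 30. Of the 13 genes of the mitochondrial genome 7 rose and none fell (median 0.24), against 5 rises and 2 falls with library size scaling. The ATP synthase subunit gene Atp5e was 813 ± 40.7 CPM in saline, 1305 ± 72.0 CPM at the lower dose and 1070 ± 27.3 CPM at the higher dose, and the cytochrome oxidase gene mt-Co3 was 2415 ± 45.3, 2950 ± 70.7 and 3655 ± 31.6 CPM. Of 15 glycolysis genes 6 rose and 3 fell (median -0.018), against 1 and 6 with library size scaling and 3 and 3 with DESeq2. Gapdh, a glycolysis enzyme gene, rose by 0.65 and Tpi1, another, fell by 0.81 on the log2 scale. Cytosolic ribosomal protein genes, a group added after the values were seen, rose in 72 of 79 cases (median 0.41). With library size scaling 53 rose (median 0.21) and with DESeq2 71. Rpl41 was at 3535 ± 172 CPM in saline, 6169 ± 126 CPM at the lower dose and 5540 ± 241 CPM at the higher dose.

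**Figure D3:**
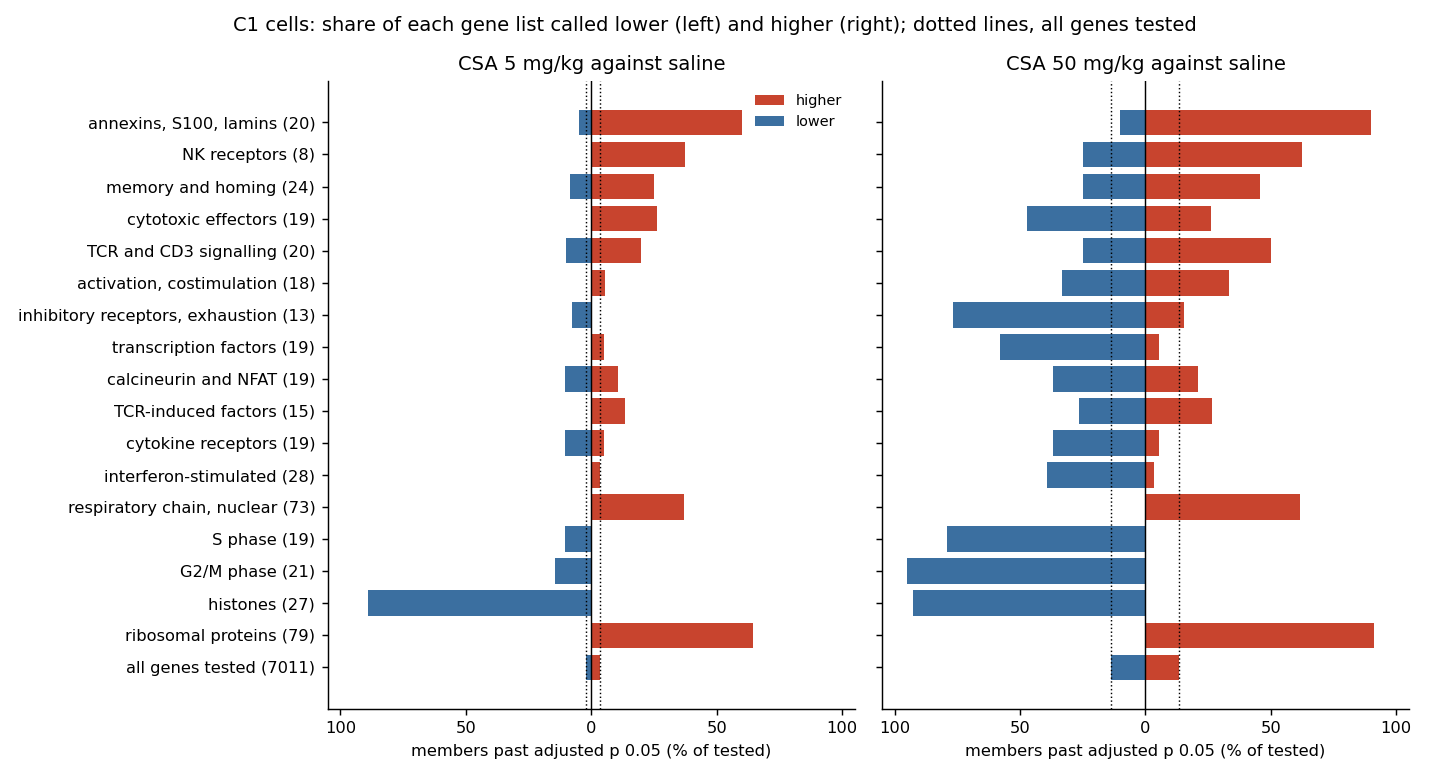
Percent of the tested genes of each list that were called higher or lower in C1 (x axis) at the lower dose and higher dose against saline, one row per list, with dotted lines for all genes tested. At the higher dose 18 of 20 annexin, S100 and lamin genes are higher and 20 of 21 G2/M genes lower, against 13.4% and 13.6% of all genes.

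Genes of the cell cycle fell. At the higher dose 15 of 19 S phase genes (median -1.24) and 20 of 21 G2/M genes (median -1.92) fell and none rose. Top2a, the mitotic topoisomerase gene, was 115, 99.6 and 113 CPM in saline, 84.2, 81.3 and 95.3 CPM at the lower dose and 14.2, 17.6 and 16.0 CPM at the higher dose (-2.76). Replication-dependent histone genes, also added after the values were seen, made up the 10 deepest falls among genes of at least 50 CPM whose pools did not overlap, and 25 of 27 fell (median -4.01). Hist1h1b, a linker histone gene, was 1036, 985 and 996 CPM in saline, 515, 433 and 408 CPM at the lower dose and 54.0, 48.5 and 52.1 CPM at the higher dose, in 3 widely separated steps (-4.28, SE 0.09, adjusted p = 9.23e-32). The same order was seen in the naive-like C7 cluster of these captures. The summed histone genes were 5725 to 6063 plain CPM in C1 in saline, 2538 to 3009 at the lower dose and 389 to 414 at the higher dose, and 4862 to 5272, 2576 to 2910 and 364 to 429 plain CPM in C7. The summed G2/M genes were 1201 to 1387 plain CPM in C1 and 1008 to 1411 in C7 in saline, and 385 to 430 and 356 to 509 at the higher dose. In saline and at the higher dose the summed G2/M level of C1 thus lay inside the range of C7, while its histone level in saline lay above. The part of free RNA from dividing cells in this result was not tested.

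Several single markers of other lineages had few UMIs in C1, while some other members of the B lineage and myeloid lists were expressed. Over all 1665 cells there were 10 UMIs of the B cell gene Cd79a, 1 of Ms4a1, 0 of the NK cell gene Ncr1, 6 of the gamma-delta TCR gene Trdc, 24 of the myeloid gene Lyz2 and 56 of the haemoglobin gene Hbb-bs. The summed B lineage list was 279 to 393 plain CPM in saline, 250 to 327 at the lower dose and 533 to 556 at the higher dose. Of its 5 genes tested, Jchain and Ighm rose and Igkc fell at the higher dose. Jchain, the antibody joining chain gene, had 1 UMI in saline, 2 at the lower dose and 523 at the higher dose, a ratio of summed UMIs per total of 129.9 between the higher dose and saline with an exact 95% counting interval of 23.2 to 5142. At the higher dose Jchain averaged 95.1 plain CPM in C1, 837 in the cycling cluster C3 and 2.0 in C7. The summed myeloid list stayed between 362 and 501 plain CPM in all pools, with 2 of 6 genes up and 1 down, and the erythroid list, of which no gene was tested, stayed under 26.4 plain CPM. In the NK and gamma-delta list 1 of 2 genes tested rose and 1 fell, and both tested genes of the CD4 lineage list fell. Of 10 dissociation stress genes 4 rose and 2 fell, against 3 and 3 with library size scaling. The genes shown for CD8+ T cells in the publication were chosen there on these samples and are not independent evidence of direction. Of the 39 tested, 9 rose and 20 fell (median -0.40).

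At the lower dose against saline 382 genes changed in C1 (5.45%), 246 upward (3.51%) and 136 downward (1.94%). With library size scaling, under which the median gene moved by -0.137, 109 rose and 303 fell. DESeq2 gave 226 rises and 52 falls. Among genes of at least 50 CPM without overlap of pools the 5 largest rises were those of Ifitm3, mt-Nd3, Ifitm2, AA467197 and Ifitm1. The gene mt-Nd3, which encodes a complex I subunit, was 61.1, 40.9 and 38.3 CPM in saline and 100.4, 106 and 115 CPM at the lower dose (1.22), and AA467197, also known as Nmes1, was 67.8, 87.1 and 90.1 CPM and 164, 190 and 164 CPM (1.07). Neither overlapped saline. Cish, a suppressor gene of cytokine receptor signalling, was 15.8, 32.0 and 22.5 CPM in saline, 65.0, 82.6 and 57.0 CPM at the lower dose and 22.3, 31.5 and 20.1 CPM at the higher dose, so that only the lower dose stood apart (1.47 at the lower dose, adjusted p = 0.00012).

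Of all genes tested 3.51% rose and 1.94% fell at the lower dose. By list, rises at the lower dose included the annexin, S100 and lamin genes (12 of 20 up and 1 down), the nuclear oxidative phosphorylation genes (27 of 73 up), the ribosomal protein genes (51 of 79 up), the mitochondrial genome (5 of 13 up), the NK receptors (3 of 8 up) and the cytotoxic genes (5 of 19 up, none down). With library size scaling these became 5, 17 and 28 rises for the first 3 lists and 3 for the mitochondrial genome. Memory and homing genes (6 of 24 up and 2 down) and TCR, CD3 and signalling genes (4 of 20 up and 2 down) turned with that scaling to 1 rise and 4 falls each. Gzmm rose by 1.29 at the lower dose. Gzma went the other way than at the higher dose, with 1282, 2018 and 1849 CPM at the lower dose (0.66, adjusted p = 0.000249), although it overlapped saline and did not pass with DESeq2. S100a6 rose by 0.70, Crip1 by 0.84 and Klrd1 by 0.64 (adjusted p = 2.57e-06). Anxa1 rose by 0.79 (adjusted p = 0.00236). Ly6c2 rose by 0.42 (adjusted p = 0.00392), which did not pass with library size scaling or DESeq2 nor without the second saline pool or the second pool at the lower dose.

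Of the inhibitory and exhaustion list 1 of 13 genes fell at the lower dose, namely Tox (-0.67, adjusted p = 0.00405), which did not pass without the third saline pool. Pdcd1 was at -0.17 (adjusted p = 0.64), Tigit at 0.08 (adjusted p = 0.785), Cd226 at -0.33 (adjusted p = 0.151) and Klrg1 at -0.25 (adjusted p = 0.814). Itga4 fell at the lower dose already, from 959, 862 and 886 CPM to 498, 527 and 502 CPM (-0.82, adjusted p = 6.13e-09). Histone genes fell in 24 of 27 cases (median -1.07), whereas 2 of 19 S phase and 3 of 21 G2/M genes fell. The interferon list had 1 rise among 28 genes (3.57%, against 3.51% of all genes tested) and no fall.

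Between the doses 1094 genes differed (15.6%), 514 higher (7.33%) and 580 lower (8.27%) at the higher dose, and the split was 360 and 735 with library size scaling. Inhibitory genes separated the doses, with 8 of 13 lower and 1 higher at the higher dose. So did the annexin, S100 and lamin list (15 of 20 higher), the cytotoxic list (11 of 19 lower and 3 higher) and the G2/M list (19 of 21 lower). Ifitm1 was lower at the higher dose by 2.02 on the log2 scale, from 1565 ± 181 to 383 ± 84.2 CPM (adjusted p = 2.07e-20). Klrg1 was higher by 2.71 (adjusted p = 3.16e-12). For Crip1 (0.01, adjusted p = 0.939) and Gzmm (0.02, adjusted p = 0.966) no difference between the doses was detected.

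Whether levels changed differently at the higher dose in C1 than in other CD8+ T cells was tested as an interaction of cluster and treatment. The pool was a block, and counts were scaled jointly for both sums of cells. Clusters and levels come from one set of counts, so the p-values describe how these clusters moved. The change differed from that of C0 for 1404 of 8074 genes (17.4%), 368 with a higher and 1036 with a lower change in C1. With library size scaling these numbers were 1570 and 541, so the balance of directions rests on the scaling, under which the median difference moved to 0.366.

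Interferon-stimulated Isg15 moved apart most between C1 and C0 among genes of at least 50 CPM with a lower change in C1. In C1 it went from 77.1 ± 22.0 to 27.3 ± 1.77 CPM, and in C0 from 51.7 ± 4.87 to 146 ± 34.7 CPM, a difference of -2.99 (SE 0.25, adjusted p = 2.19e-16). Ccl5 rose in both, from 6837 ± 157 to 17431 ± 1031 CPM in C1 and from 2481 ± 146 to 32271 ± 1686 CPM in C0, so that its rise was smaller in C1 (difference -2.35, SE 0.07, adjusted p = 3.18e-40). Ifi27l2a, an interferon-inducible gene, went from 982 to 636 CPM in C1 and from 400.0 to 1282 CPM in C0 (-2.31), and Plac8 from 336 to 320.0 and from 125 to 528 CPM (-2.15). Pdcd1 fell in both clusters, from 300 ± 37.5 to 33.1 ± 19.5 CPM in C1 and from 284 to 6.41 ± 7.78 CPM in C0, and C1 kept more of it (2.43, SE 0.37, adjusted p = 3.05e-07). Ifitm1 fell to 411 CPM in C1 and to 25.4 CPM in C0, from 824 and 212 CPM (1.88, adjusted p = 7.70e-09). Nrp1, a neuropilin coreceptor gene, followed the same order (1.51).

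**Figure D4:**
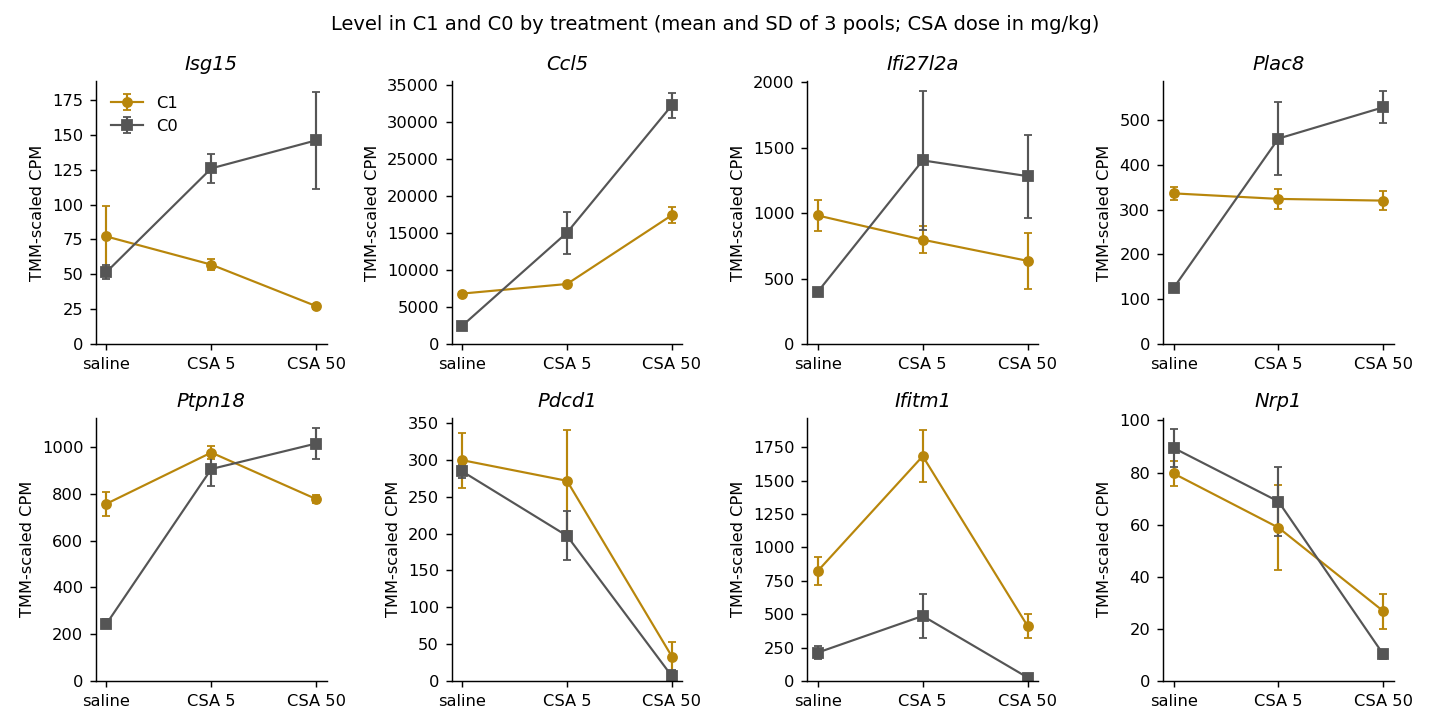
Mean jointly TMM-scaled CPM (y axis) of 8 genes in C1 and in C0 for saline, the lower dose and the higher dose (x axis), with SD over the 3 pools as bars. Isg15 goes down in C1 (77.1 to 27.3 CPM) and up in C0 (51.7 to 146 CPM), Ccl5 climbs more steeply in C0, and Ifitm1 stays higher in C1 at every dose.

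Against all other CD8+ T cells the change at the higher dose differed for 2008 of 10010 genes (20.1%), 596 higher and 1412 lower in C1, and 1845 and 826 with library size scaling. The other cells are a sum over clusters whose mix moved with dose. Clonotyped C4 cells, for example, numbered 275 to 311 per saline pool and 6 to 7 at the higher dose. A change in the rest thus includes a change of mix, and that part was not tested. Dividing-cell genes were among the most negative differences. The mitotic activator gene Cdc20 went from 26.7 to 2.57 CPM in C1 and from 107 to 119.97 CPM in the rest (-3.51). Ifitm1 fell less in C1 than in the rest, from 799 to 410.1 CPM against 165 to 38.3 CPM (1.13, adjusted p = 8.12e-10). Against C2 the change differed for 972 of 9290 genes (10.5%), 244 higher and 728 lower in C1, and 509 and 500 with library size scaling.

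Clonotypes, built by the authors from the CDR3 sequences of the TCR, were present in 1404 of the 1665 C1 cells, from 63.5% of the first saline pool to 91.7% of the second pool at the higher dose. These cells held 1334 clonotypes. Of these, 4 were found in more than 1 pool of the same group and capture, and none was found in more than 1 treatment group. Within a pool, 7 clonotypes had at least 3 C1 cells. The CDR3 sequences of 4 of these larger clonotypes follow, namely the 2 with most C1 cells and, of those with 3 C1 cells, the 2 with most cells in all. They set receptors spread over several clusters beside one found in C1 alone. They run 5′ to 3′ as deposited, with capitals for the bases between the first and the last codon.
Clonotype 1 alpha chain, TRAV7-3 and TRAJ22: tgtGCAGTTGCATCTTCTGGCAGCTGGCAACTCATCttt
Clonotype 1 beta chain, TRBV31 and TRBJ1-2: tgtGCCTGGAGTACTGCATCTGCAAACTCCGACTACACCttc
Clonotype 2 alpha chain, TRAV4D-4 and TRAJ33: tgtGCTGCTGGGTTGATCtgg
Clonotype 2 beta chain, TRBV14 and TRBJ2-7: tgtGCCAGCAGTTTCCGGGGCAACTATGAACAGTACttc
Clonotype 3 alpha chain, TRAV16 and TRAJ34: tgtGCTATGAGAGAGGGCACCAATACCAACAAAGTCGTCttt
Clonotype 3 beta chain, TRBV13-3 and TRBJ1-1: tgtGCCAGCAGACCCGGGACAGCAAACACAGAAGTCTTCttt
Clonotype 4 alpha chain, TRAV6-6 and TRAJ49: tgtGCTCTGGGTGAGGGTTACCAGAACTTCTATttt
Clonotype 4 beta chain, TRBV17 and TRBJ2-2: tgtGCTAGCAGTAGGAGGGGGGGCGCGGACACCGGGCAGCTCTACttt
Clonotype 1 came from the third saline pool and had 4 C1 cells of 19 cells in all, with 6 in C2 and 5 in C4. Clonotypes 3 and 4 came from the second and the first saline pool with 3 C1 cells each, of 64 and 60 cells in all, and had 39 and 20 cells in the cycling cluster C4. Clonotype 2, from the second pool at the higher dose, had all of its 4 cells in C1. Of the larger clonotypes not shown, those with all 3 of their cells in C1 came from the third pool at the lower dose and the second pool at the higher dose. Another from the latter pool had 3 C1 cells of 6 cells in all.

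The Simpson index of C1, the chance that 2 cells drawn from the cluster share a clonotype, was 0.00228, 0.00115 and 0.00179 in the saline pools, 0.000948, 0.000285 and 0.000708 at the lower dose and 0.000351, 0.000776 and 0.00021 at the higher dose. Every saline pool was above every CSA pool, and the CSA groups overlapped. The exact two-sided permutation test of a trend over the 3 groups gave p = 0.0214, and 0.0643 after adjustment over the 3 clonality measures, which did not pass. The share of C1 cells in a clonotype of at least 2 C1 cells was 9.66 ± 2.80% in saline, 8.07 ± 4.21% at the lower dose and 8.82 ± 3.93% at the higher dose (exact permutation p = 0.831). At an equal number of cells in every pool it was 8.58%, 4.53% and 3.01% (exact permutation p of the trend 0.0417, adjusted p = 0.0833, which did not pass).

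C1 cells that shared a clonotype with another CD8 cluster of their pool made up 19.2%, 28.8% and 30.3% of clonotyped C1 cells in saline, 13.1%, 13.4% and 13.1% at the lower dose and 22.5%, 16.8% and 16.2% at the higher dose. The lower dose pools were lowest, and the first saline pool lay inside the range of the higher dose pools (exact permutation p of the trend 0.519). At an equal number of cells it was 15.04%, 22.8% and 20.1% in saline, 13.1%, 10.8% and 10.1% at the lower dose and 14.4%, 11.8% and 10.4% at the higher dose. Saline then lay above both CSA groups (exact permutation p of the trend 0.123). The smallest p this trend test allows is 0.00119. Sharing was greatest with the cycling clusters and C0 in saline, at 15.9% with C2, 15.5% with C4, 15.1% with C0 and 13.9% with C3. At the higher dose it was 10.4% with C2, 7.51% with C3, 3.60% with C0 and 0.42% with C4. C4 itself went from 319 to 370 cells per saline pool to 6 to 7 cells per pool at the higher dose. Clonotyped C0 cells numbered 223 to 259 per saline pool, 45 to 55 at the lower dose and 103 to 199 at the higher dose. Sharing with C0 at the lower dose was 0.48%. Fewer cells of C4 and C0 could thus share a clonotype under CSA, and that part was not tested. No C1 cell shared a clonotype with C7 in any pool.

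**Figure D5:**
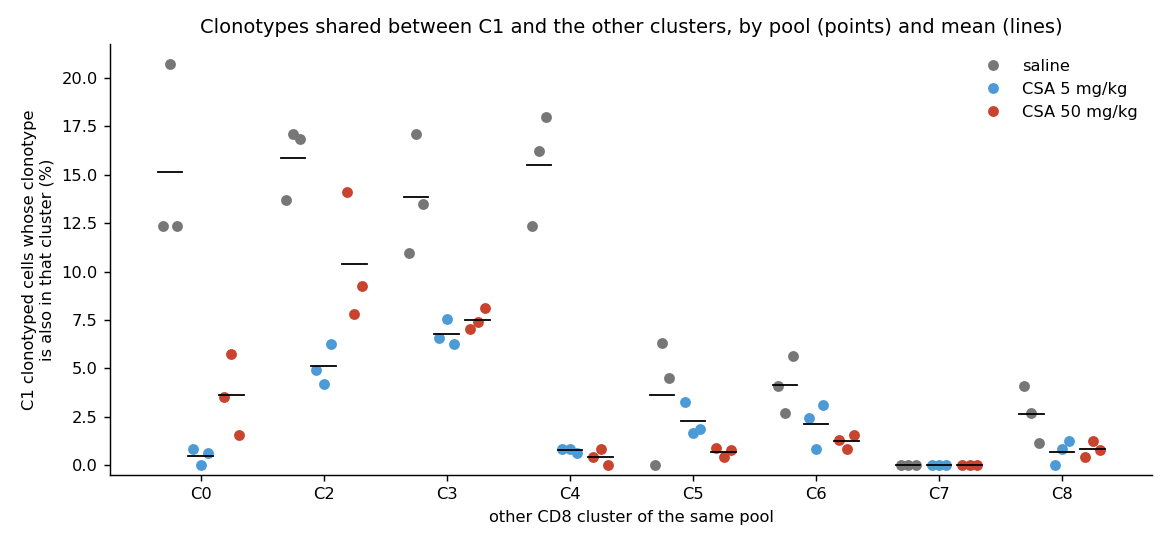
Percent of clonotyped C1 cells whose clonotype also occurred in each other CD8 cluster of the same pool (y axis) for C0 and C2 to C8 (x axis), one point per pool, by treatment group. Saline pools share most with C0, C2, C3 and C4 (means 13.9% to 15.9%), and sharing with C7 is 0 in every pool.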

How the data were processed

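Single-cell RNA, hashtag and TCR libraries of 3 captures were read as the per-cell tables the authors deposited. The deposited RNA values are raw UMI counts per gene and cell (18029 genes). Cells, cluster numbers, hashtag calls and clonotypes are the authors', and percent.mito is a fraction the authors deposited per cell. The submitters' processing notes name Cell Ranger, Seurat 3.0.0 and the mm10 build. The Cell Ranger version and the annotation are not given in the sources used here. The summed UMIs of a cell equalled the deposited total in all 10833 CD8 cells. Hashtags assign cells to pools, and 0 columns belonged to unmapped samples.

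C1 counts were summed per pool (3 per group, at least 10 cells) and tested with edgeR 4.0.16 (quasi-likelihood, filterByExpr, TMM, Benjamini-Hochberg, threshold 0.05) in R 4.3.3, all 9 pools in 1 fit. DESeq2 1.42.0 was an alternative, as were library size scaling, no filter, 2 groups only, cells of at least 2000 UMIs, clonotyped cells, cells without a second strong hashtag, a pool block and leaving out each pool. The interaction fits had the pool as block. Clonality was tested by exact permutation of a Jonckheere-Terpstra trend (1680 assignments). Cluster ratios used plain CPM plus a prior of 0.5 UMIs, for genes of at least 50 CPM. Scripts were tested on simulated data. Python 3.11.15, numpy 2.4.6, pandas 2.3.3 and scipy 1.17.1 were used. Counting intervals cover counting error only. Doublets were not called anew, and cells with a second strong hashtag were left out in an alternative.

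Named genes were the 10 largest rises and falls at 50 mg/kg and the 5 at 5 mg/kg among called genes of at least 50 CPM without overlap of pools, genes the study showed for CD8 cells, and members of gene lists that account for their calls. Members and lists were chosen with earlier results of these data known. The authors' module scores and the CD4 count table were not used. Promoter sequences are RefSeq's. Some genes that this rule names are not reported here.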

Additional observations from a re-analysis of the deposited data

Results flagged for a closer look

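The changes at 50 mg/kg that differed between C1 and other CD8+ T cells by the interaction of cluster and treatment are given here as values. They numbered 2008 against the other CD8+ T cells, 1404 against C0 and 972 against C2. Against the other CD8+ T cells among the most negative differences in log2 change (C1 minus the others) of genes of at least 50 CPM in one of the sums compared were those of the histone gene Hist1h2ap (-4.78), the cohesion gene Esco2 (-3.91), Cdc20 (-3.51) and the histone gene Hist1h2ak (-3.30). In the other cells Hist1h2ap went from 30.8 to 96.5 CPM while in C1 it went from 28.1 to 3.09 CPM. The mix of clusters in the other cells also moved with dose, and its part was not tested. Among the most positive were Elovl5, a fatty acid elongase gene (1.37), the noncoding gene Gm26917 (1.35), Ifitm1 (1.13) and the Golgi gene Glg1 (1.12). Elovl5 rose from 33.9 to 64.4 CPM in C1 and was at 68.0 and 49.2 CPM in the other cells.

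Against C0 the most negative differences were Isg15 (-2.99), Ccl5 (-2.35), Ifi27l2a (-2.31), Plac8 (-2.15) and the phosphatase gene Ptpn18 (-2.02). Among the most positive were Pdcd1 (2.43), Ifitm2 (2.19), Ifitm1 (1.88) and Nrp1 (1.51). Against C2 they included the DNA repair gene Rad51ap1 (-5.06), the MAX dimerization gene Mxd3 (-4.88), Hist1h2ap (-4.70) and Esco2 (-4.60) at one end, and Ifitm1 (2.10), Ifitm2 (1.88), Ifitm3 (1.21), Gm26917 (1.15) and Nrp1 (1.09) at the other. All of these were past the adjusted threshold and kept their direction and their side of it under each alternative run, leaving out each pool included. The summed G2/M genes of C1 lay inside the range of the naive-like C7 cluster in every group, at the lower dose with 850 to 1018 against 715 to 1021 plain CPM, and their part in the differences of dividing-cell genes was not tested.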

How the results depend on the processing

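Counts of changed genes moved by over 1.5 times with DESeq2 to 1139 at 50 mg/kg against saline and 618 between the doses (278 at 5 mg/kg), with cells of 3000 to 8000 UMIs, an alternative chosen after seeing the data, to 220 at 5 mg/kg (1339 and 894 in the other comparisons), and with library size scaling to 2111 differences from C0. The cause was not tested. In the dose comparisons no gene was called in the opposite direction under these, and among the differences from C0 there were 3 with library size scaling. Without filter 2116, 402 and 1306 genes were called, and with clonotyped cells alone 1474 and 297 against saline. Leaving out each pool gave 1366 to 1981, 258 to 416 and 813 to 1144 genes in the 3 dose comparisons, and 1546 to 2021, 1019 to 1416 and 677 to 978 differences from the other cells, C0 and C2. The Simpson index of C1 differed between 50 mg/kg and saline by -0.00129. In the trend test it passed at -0.00136 (adjusted p = 0.0286) without cells of a second hashtag. With nucleotide clonotypes and V genes it did not pass at -0.00109 (adjusted p = 0.125). Nor did it at -0.00193 with the 1136 C1 cells of both chains (adjusted p = 0.125), an alternative that was not planned. Without 1 pool it ranged from -0.00159 to -0.00102 (passing without the second pool of either CSA group). The share in clonotypes of at least 2 C1 cells (-0.84 percentage points) ranged from -2.99 to 0.862 and turned without the first saline pool (0.491) or the third 50 mg/kg pool (0.862), and the shared part (-7.62) from -11.1 to -5.51. Single-gene results were mostly entered because they had passed in the main fit, as 415 of 425 did, so agreement is partly built in. Fits without a pool of a group not compared are included. Of 7455 single-gene values 7040 kept their call and direction, 398 lost and 7 gained the call and 10 turned. Those that turned at 50 mg/kg were Gzmb (-0.19 with library size, -0.011 without second hashtags, -0.21 with 3000 to 8000 UMIs, -0.067 and -0.10 without the second or the third saline pool, -0.062 without the first 50 mg/kg pool, up to 0.25 without the first saline pool), Ppia (-0.064) with library size, Slamf6 (0.012) and Il7r (0.27) with 3000 to 8000 UMIs, and Il7r (0.036) without the third saline pool, down to -0.34 without the first. Pools of different groups share only a number (correlations of their deviations -0.0291 to 0.0046), and the pool number as a replicate block gave 1839, 384 and 1084 genes. Saline pools, with the fewest UMIs, limit genes of few UMIs such as Lmna.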
